A study of Homo sapiens with 9 samples.

Results

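The tumor necrosis factor (TNF) ligand and receptor superfamilies were examined in 3 lines of human colon cancer cells. The members were taken by name: every gene whose symbol starts with TNFRSF or TNFSF, antisense names excepted, and 13 genes of the same families with other symbols, such as FAS, EDAR and LTB. They make up 48 of the 63677 gene identifiers in the count files: 28 receptors, 17 ligands, 1 readthrough locus and 2 identifiers of TNFRSF10A-DT, a non-coding transcript that starts beside TNFRSF10A. SW480 cells derive from a colon adenocarcinoma, and their BASP1 gene, which encodes a signaling protein and transcriptional corepressor, is nearly silent. SW480-B is a single clone of SW480 that carries the BASP1 coding region on a plasmid under a viral promoter and was selected with geneticin. SW480-gRNA-B-all cells carry 3 lentiviral components: dCas9-VP64, the MS2-P65-HSF1 activator, which contains a transactivating part of the NF-κB subunit p65, and pooled sgRNAs directed to the BASP1 promoter. They were selected with hygromycin B and puromycin, and single cells were cloned before the sgRNAs were added. The parental SW480 cells carry none of these constructs, and no empty-vector line is among the samples, so BASP1, the constructs, the selection and the cloning cannot be told apart. The questions addressed were which family members differ between the parental cells and each BASP1-expressing line, and which differ between the BASP1-expressing lines.

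Ligands of the TNF superfamily are mostly trimeric membrane proteins that bind receptors on the same or on neighboring cells. Receptors with a death domain can recruit FADD or TRADD and activate caspases, whereas receptors that bind TRAF adapters mainly feed into NF-κB and JNK signaling. Decoy receptors bind ligand and do not pass on the death signal. In the intestine, these families are known for controlling epithelial turnover, mucosal inflammation and the response to cytotoxic lymphocytes, and many of the ligands are made mainly by immune cells.

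Promoters are shown for 4 members that were called between the BASP1-expressing lines, so that their sequences can be read beside the values. The 4 windows below, written 5′ to 3′ on the strand of the gene, from LTB, which was higher in SW480-gRNA-B-all, and from EDA2R, FASLG and TNFRSF19, which were lower, hold the 250 bases before the first listed start of each gene (RefSeq, GRCh38.p14). Capitals mark matches to the κB motif, the TCF motif CTTTGAT or the AP-1 motif TGANTCA, searched on both strands. These genes were chosen after their values were seen.
LTB (chr6:31582426-31582675, minus strand): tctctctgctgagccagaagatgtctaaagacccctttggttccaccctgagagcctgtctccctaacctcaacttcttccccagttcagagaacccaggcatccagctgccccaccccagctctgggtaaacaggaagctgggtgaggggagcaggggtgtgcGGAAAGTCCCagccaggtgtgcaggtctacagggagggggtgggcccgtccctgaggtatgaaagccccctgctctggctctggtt
EDA2R (chrX:66639270-66639519, minus strand): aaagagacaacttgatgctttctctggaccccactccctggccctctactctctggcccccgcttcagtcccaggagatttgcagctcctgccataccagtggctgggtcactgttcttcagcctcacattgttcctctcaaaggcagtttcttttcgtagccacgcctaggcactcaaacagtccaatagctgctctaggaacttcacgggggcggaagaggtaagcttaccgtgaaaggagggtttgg
FASLG (chr1:172658853-172659102, plus strand): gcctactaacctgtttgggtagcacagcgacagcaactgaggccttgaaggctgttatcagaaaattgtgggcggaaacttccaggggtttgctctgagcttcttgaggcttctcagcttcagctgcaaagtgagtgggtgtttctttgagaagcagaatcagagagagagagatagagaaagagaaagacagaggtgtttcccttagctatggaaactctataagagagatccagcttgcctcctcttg
TNFRSF19 (chr13:23570162-23570411, plus strand): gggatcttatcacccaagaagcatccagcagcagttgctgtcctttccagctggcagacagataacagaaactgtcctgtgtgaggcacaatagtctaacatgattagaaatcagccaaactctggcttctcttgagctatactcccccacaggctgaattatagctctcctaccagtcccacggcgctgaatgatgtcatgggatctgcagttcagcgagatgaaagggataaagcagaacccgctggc
The LTB window holds 1 κB match, and the windows of EDA2R, FASLG and TNFRSF19 hold no match to any of the 3 motifs. TNFRSF8 and TNFRSF11A, which were also higher in SW480-gRNA-B-all, and TNFSF10, which was lower, hold no match either. Counted per gene over all its listed windows, 6.28% of 27303 genes hold the κB motif, 8.06% the AP-1 motif and 2.75% the TCF motif. Among the 29 of 47 member symbols with an entry, 7 (24.1%) hold a κB match, 6 (20.7%) an AP-1 match and 1 (3.45%) a TCF match, which lies with an AP-1 match in the other of the 2 listed EDA2R windows. The κB matches are in FAS, LTA, LTB, TNFRSF14, TNFRSF9, TNFSF13 and TNFSF14, of which LTB alone is among the called members. A match describes letters and not a bound site.

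In the libraries, poly(A) RNA gave between 25238831 and 29355669 counts on genes, with 3 libraries per line from separately isolated RNA. Levels are given as CPM, the counts divided by the library size after scaling across the 9 libraries, or per kilobase of exon (FPKM) where genes are compared with each other. A count of 0 in a library allows up to 3 counts, which is 0.102 to 0.119 CPM. BASP1 was at 11.3, 8.09 and 0.688 CPM in SW480, at 266, 270 and 255 CPM in SW480-B and at 166, 308 and 305 CPM in SW480-gRNA-B-all. Both BASP1-expressing lines were above every SW480 library. SW480 replicate 1 often stood apart from the other 2 SW480 libraries. Within SW480-gRNA-B-all, replicates 2 and 3 were close to each other, with 0.421% of 14015 genes more than 2-fold apart against 8.48% to 28.0% in the other pairs. They were kept as separate libraries, and results with both summed are given with the alternatives. Colon epithelial markers summed to 8000 to 10900 CPM in SW480, 6960 to 11400 CPM in SW480-B and 6320 to 7930 CPM in SW480-gRNA-B-all. Of these 13 markers, 9, 8 and 8 reached a mean of 1 CPM in the same order of lines. KRT20, CDX1, LGALS4 and GPA33 stayed under it in every line, and CDH17 had no count in either BASP1-expressing line. CDX2 and VIL1 were detected in all libraries. CDX2 fell to between 2.41 and 5.51 CPM in SW480-gRNA-B-all from 28.9 to 41.7 CPM in SW480 (log2 fold change -3.28, adjusted p = 0.009). VIL1 was at 98.3 to 327 CPM in SW480, 29.5 to 36.1 CPM in SW480-B and 6.45 to 21.4 CPM in SW480-gRNA-B-all. Blood and immune cell markers summed to 3.72 to 9.65 CPM over all libraries.

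**Figure D1:**
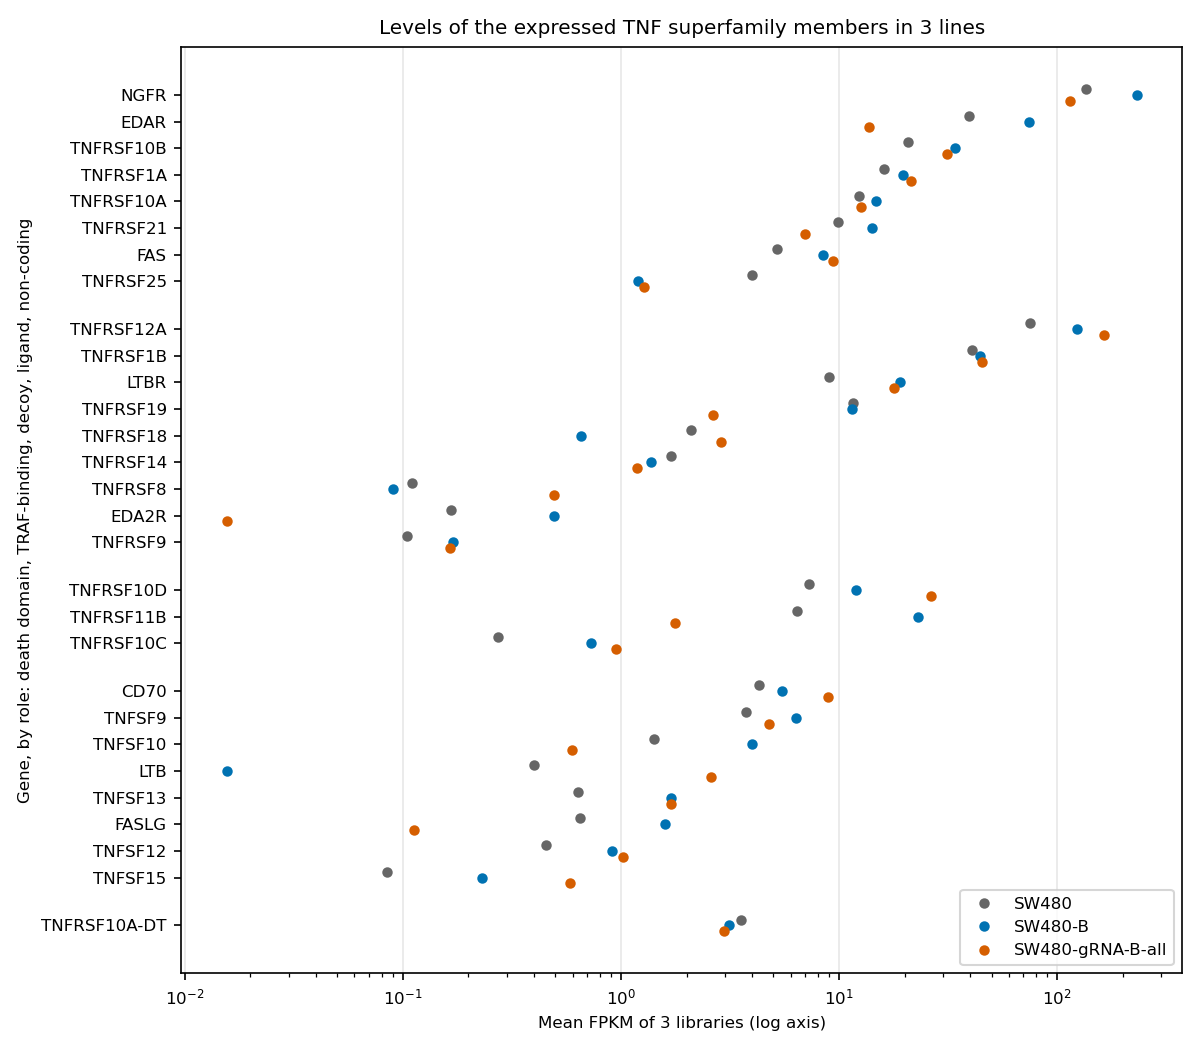
Mean level of the 29 members with at least 1 CPM in a line, as FPKM on a log axis, with 1 point per line and the genes ordered by role. NGFR and TNFRSF12A are at the top and LTB, EDA2R and FASLG show the widest gaps between lines.

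Of the 48 members, 29 reached a mean of 1 CPM in at least 1 line, 19 stayed under it and 3 had no count in any library. All 8 death domain receptors were among the 29, with 9 of 16 TRAF-binding receptors, 3 of 4 decoy receptors, 8 of 17 ligands and 1 identifier of TNFRSF10A-DT. Per length, NGFR, the low-affinity neurotrophin receptor, had the highest mean of the members in SW480 (136 FPKM) and in SW480-B (231 FPKM). TNFRSF12A, the receptor of TWEAK, had the highest mean in SW480-gRNA-B-all (164 FPKM, against 115 FPKM for NGFR). The ligands were lower, with CD70 the highest of them in SW480-gRNA-B-all at 8.85 FPKM.

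After the filter on low counts, 30, 28 and 31 members entered the 3 comparisons, and a call needed an adjusted p under 0.05 together with a change of more than 2-fold. Relative to SW480, 2 of 30 members rose and 2 fell in SW480-gRNA-B-all, where 1.89% and 4.66% of 16100 genes were called in those directions. Between SW480-B and SW480, 0 of 28 were called by edgeR in either direction, where 0.0931% and 1.25% of 16106 genes were called higher and lower. Of these 28, 10 had an unadjusted p under 0.05. DESeq2 called LTBR and FASLG higher and TNFRSF25 lower, and also TNFRSF4, which is not among the 28 and is given with its counts. Between SW480-gRNA-B-all and SW480-B, 3 of 31 rose and 7 fell, where 2.31% and 4.37% of 15846 genes were called. The 10 called members are TNFRSF8, TNFRSF11A, LTB, EDAR, EDA2R, NGFR, TNFRSF19, TNFRSF11B, FASLG and TNFSF10. LTB and TNFRSF11A passed the filter only through SW480-gRNA-B-all, and EDA2R and FASLG entered the comparison with SW480-B only through SW480-B. A gene that passes in this way has to differ, and the calls of these 4 members are to be read with that limit. TNFRSF8 also needed the SW480-gRNA-B-all libraries to pass against either other line, although some libraries of those lines reached the filter too. The limit therefore extends in part to both calls of TNFRSF8. Every fit without 1 library used the same filter, so a call that held there does not lift the limit.

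The libraries of SW480-gRNA-B-all and SW480 did not overlap for 16 of 30 members (37.7% of all genes), those of SW480-B and SW480 for 13 of 28 (22.5%), and those of SW480-gRNA-B-all and SW480-B for 13 of 31 (30.3%). In SW480-B against SW480, 23 tested members had a positive and 5 a negative log2 fold change, with a median of 0.72 against -0.004 over all genes. The median was 0.38 in SW480-gRNA-B-all against SW480 (-0.054 over all genes) and -0.03 in SW480-gRNA-B-all against SW480-B (-0.004 over all genes). The comparisons share libraries and are not independent of each other.

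**Figure D2:**
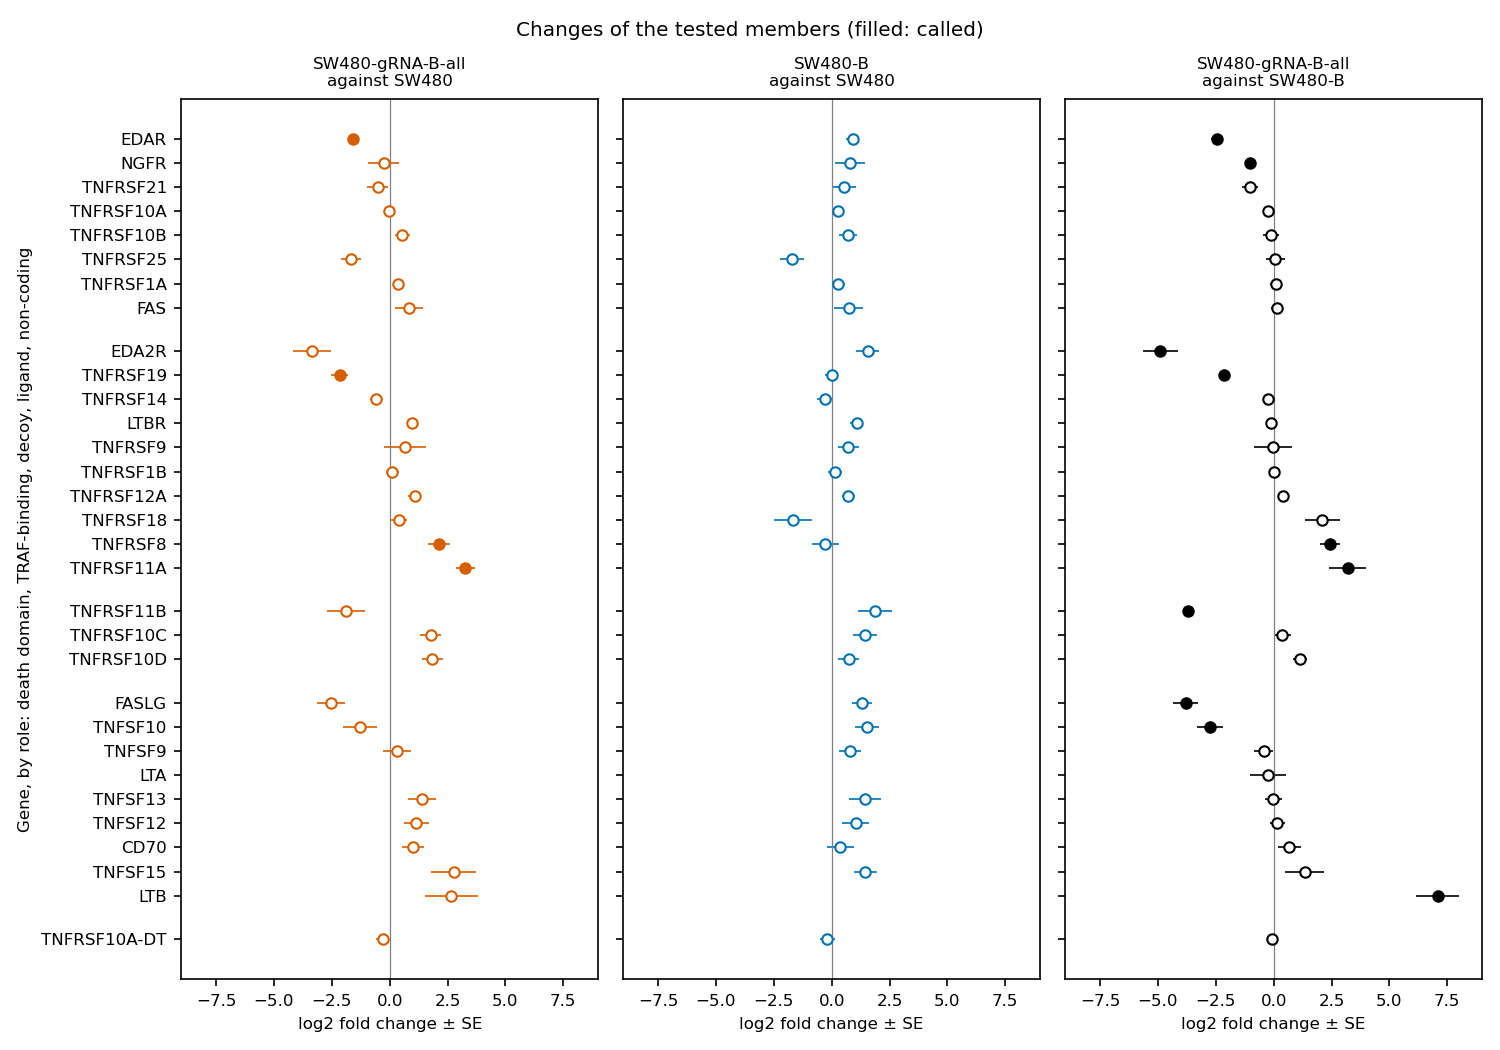
Log2 fold change with its standard error for each tested member in the 3 comparisons, with 1 row per gene ordered by role and filled points for called members. No point is filled for SW480-B against SW480, and 10 are filled for SW480-gRNA-B-all against SW480-B.

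Both ectodysplasin receptors fell in SW480-gRNA-B-all against SW480-B. EDAR, a death domain receptor that signals to NF-κB in skin appendages, was at 181, 154 and 188 CPM in SW480, at 254, 468 and 260 CPM in SW480-B and at 48.7, 65.4 and 67.3 CPM in SW480-gRNA-B-all (chr2:109510927-109605828, GRCh37). The 3 lines did not overlap. Fewer cells with a given RNA and less RNA per cell cannot be told apart in these bulk libraries. EDAR fell 2.98-fold against SW480 (log2 fold change -1.58 ± 0.19 SE, adjusted p = 0.009) and 5.44-fold against SW480-B (-2.44 ± 0.28 SE, adjusted p = 0.0028). The first call was lost without SW480 replicate 2 or SW480-gRNA-B-all replicate 2 or 3 (adjusted p of 0.05 to 0.059), and the second held in all 6 fits without 1 library. In SW480-B against SW480, its log2 fold change was 0.91 ± 0.29 SE with an adjusted p of 0.19. EDA2R, which binds the ectodysplasin isoform EDA-A2, is on chrX:65815479-65859140 and was rarer, at 0.688, 0.764 and 0.362 CPM in SW480 and at 2.34, 1.29 and 1.73 CPM in SW480-B. In SW480-gRNA-B-all, EDA2R was at 0.135, 0.0339 and 0 CPM, near or under the depth limit. It fell against SW480-B (log2 fold change -4.89 ± 0.74 SE, adjusted p = 0.0074). With 5 counts in SW480-gRNA-B-all the size is uncertain. It was -6.39 without replicate 1 of that line and between -5.08 and -4.32 without any other library. EDA2R was called each time, under the filter that it passed only through SW480-B. Against SW480, the change was -3.37 ± 0.83 SE (adjusted p = 0.053), and DESeq2 called EDA2R lower (adjusted p = 0.014).

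Of the other death domain receptors, edgeR called NGFR alone, in 1 comparison, and DESeq2 also called TNFRSF25 and TNFRSF21. NGFR was at 94.2, 678 and 912 CPM in SW480, at 894, 1160 and 816 CPM in SW480-B and at 435, 481 and 506 CPM in SW480-gRNA-B-all (chr17:47572655-47592370). The SW480 libraries spanned the whole range of SW480-gRNA-B-all, whereas every SW480-B library was above every SW480-gRNA-B-all library. NGFR fell 2.03-fold against SW480-B (log2 fold change -1.02 ± 0.20 SE, adjusted p = 0.019), close to the 2-fold limit. The call was lost without SW480-B replicate 2 or any 1 of the SW480-gRNA-B-all replicates, and the adjusted p was 0.38 with all 9 libraries in 1 fit. TNFRSF25, a receptor of TL1A, was at 25.1, 17.4 and 8.37 CPM in SW480, at 8.19, 3.83 and 3.34 CPM in SW480-B and at 6.53, 4.41 and 5.46 CPM in SW480-gRNA-B-all. Every library of both BASP1-expressing lines was below every SW480 library. The log2 fold change against SW480 was -1.73 ± 0.52 SE in SW480-B (adjusted p = 0.17) and -1.69 ± 0.43 SE in SW480-gRNA-B-all (adjusted p = 0.058). With the replicate number as a block, the adjusted p in SW480-B was 0.046 and TNFRSF25 was called lower. DESeq2 called it lower in both lines (adjusted p = 0.016 and 0.0027).

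FAS, the receptor of the FAS ligand, was at 5.11, 14.0 and 36.2 CPM in SW480, at 23.4, 22.6 and 44.3 CPM in SW480-B and at 27.9, 37.4 and 35.0 CPM in SW480-gRNA-B-all. TNFRSF1A, the main TNF receptor, was at 76.9, 62.2 and 62.9 CPM, at 61.9, 123 and 63.1 CPM and at 98.5, 87.3 and 83.0 CPM in the same order of lines. TNFRSF21, also known as death receptor 6, was at 13.0, 49.7 and 43.7 CPM, at 26.3, 74.4 and 51.4 CPM and at 30.7, 22.5 and 22.3 CPM. None of these 3 receptors was called by edgeR, with adjusted p values between 0.11 and 0.84. DESeq2 called TNFRSF21 lower in SW480-gRNA-B-all against SW480-B (log2 fold change -1.01, adjusted p = 0.037).

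The receptors of TRAIL, a ligand that triggers apoptosis in many tumor cells, lie next to each other on chromosome 8. Those with a death domain were TNFRSF10A, at 37.9, 34.7 and 35.5 CPM in SW480, at 36.4, 55.9 and 37.9 CPM in SW480-B and at 44.4, 31.5 and 34.4 CPM in SW480-gRNA-B-all, and TNFRSF10B. TNFRSF10B was at 148, 87.3 and 74.6 CPM, at 196, 222 and 90.9 CPM and at 207, 129 and 133 CPM in the same order. Neither was called, and the largest log2 fold change of both was 0.71 ± 0.39 SE, of TNFRSF10B in SW480-B against SW480 (adjusted p = 0.42). TNFRSF10D, a decoy with a truncated death domain, was at 10.5, 27.6 and 38.8 CPM in SW480, at 30.1, 64.3 and 32.4 CPM in SW480-B and at 116, 81.8 and 83.0 CPM in SW480-gRNA-B-all. All SW480-gRNA-B-all libraries were above those of both other lines. TNFRSF10D differed from SW480 by 1.84 ± 0.44 SE (adjusted p = 0.051) and from SW480-B by 1.15 ± 0.31 SE (adjusted p = 0.056) on the log2 scale there, short of the threshold both times with edgeR. DESeq2 called TNFRSF10D higher in both comparisons (adjusted p = 0.00069 and 0.0061). Without SW480 replicate 1 or replicate 3, the adjusted p against SW480 was 0.026 and 0.024, and without SW480-B replicate 2 it was 0.025 against SW480-B. TNFRSF10C, a decoy anchored without a cytoplasmic part, was at 0.295, 0.312 and 0.652 CPM, at 1.08, 0.896 and 1.40 CPM and at 1.83, 1.25 and 1.32 CPM. The TNFRSF10C change in SW480-gRNA-B-all against SW480 was 1.76 ± 0.44 SE on the log2 scale (adjusted p = 0.055), and DESeq2 called it higher (adjusted p = 0.0097). TNFRSF10A-DT was at 13.9, 8.44 and 8.66 CPM, at 8.15, 10.6 and 8.45 CPM and at 9.30, 8.71 and 7.87 CPM and was not called.

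The decoys TNFRSF10C and TNFRSF10D together made up 5.50%, 18.6% and 26.4% of the CPM of the 4 TRAIL receptors in SW480, 11.8%, 19.0% and 20.8% in SW480-B and 31.9%, 34.1% and 33.5% in SW480-gRNA-B-all. This share was computed after the values were seen. It was 33.2% ± 1.14 (SD, n = 3) in SW480-gRNA-B-all against 16.8% ± 10.6 in SW480 and 17.2% ± 4.76 in SW480-B, with an exact two-sided permutation p of 0.10 for both differences, the smallest that 3 against 3 libraries allow (0.15 after adjustment over 3 comparisons).

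**Figure D3:**
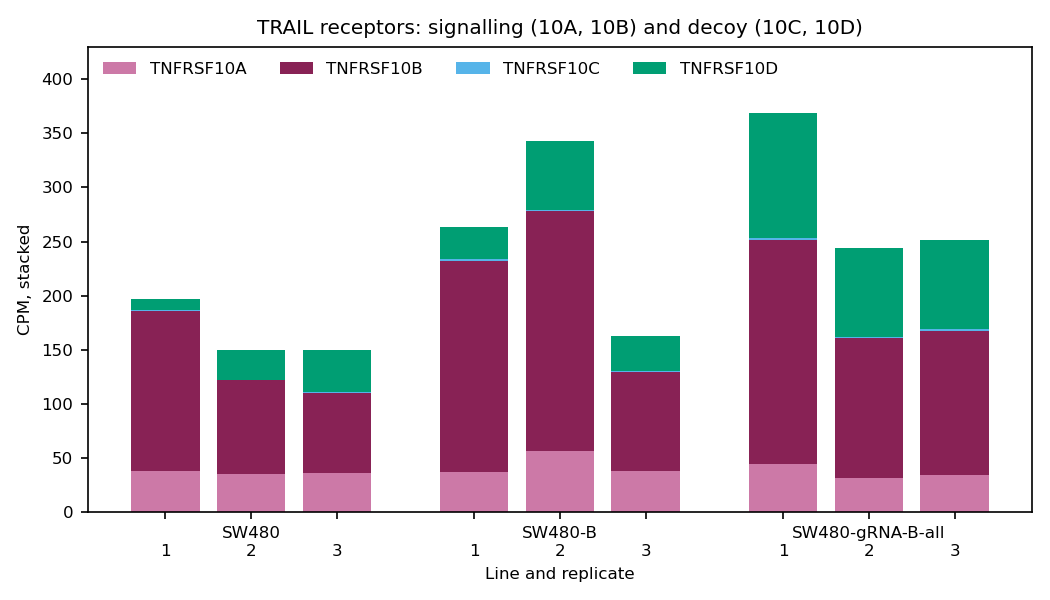
CPM of the 4 TRAIL receptors in each library, stacked, with both signaling receptors at the bottom and the decoys on top. The decoy TNFRSF10D is between 81.8 and 116 CPM in the 3 libraries of SW480-gRNA-B-all and at most 64.3 CPM in the others.

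The secreted decoy osteoprotegerin (TNFRSF11B), which binds RANKL and TRAIL, was at 1.77, 18.9 and 27.7 CPM in SW480, at 52.4, 61.8 and 58.2 CPM in SW480-B and at 3.92, 3.97 and 5.39 CPM in SW480-gRNA-B-all. The SW480-B libraries were the highest, and the SW480 libraries lay on both sides of those of SW480-gRNA-B-all. TNFRSF11B fell 13.0-fold against SW480-B (log2 fold change -3.71 ± 0.21 SE, adjusted p = 0.0002), and this call held in all 6 fits without 1 library. Against SW480, the change was 1.86 ± 0.74 SE in SW480-B (adjusted p = 0.28) and -1.89 ± 0.82 SE in SW480-gRNA-B-all (adjusted p = 0.18). Without SW480 replicate 1, the low SW480 library, the latter adjusted p was 0.012. TNFRSF6B had no count, but its exons lie wholly within a readthrough gene on the same strand, and fragments shared with that gene could not be assigned.

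RANK (TNFRSF11A), the receptor of RANKL, was at 0.0983, 0.0694 and 0.0724 CPM in SW480, at 0.231, 0 and 0.0359 CPM in SW480-B and at 0.812, 0.881 and 0.814 CPM in SW480-gRNA-B-all. It is named here because it was called, and its mean stayed under 1 CPM. The 7 counts of SW480, the 7 of SW480-B and the 74 of SW480-gRNA-B-all gave log2 fold changes of 3.27 ± 0.41 SE against SW480 (adjusted p = 0.011) and 3.19 ± 0.80 SE against SW480-B (adjusted p = 0.044). Without 1 library, the first call held in 2 of 6 fits (without SW480 replicate 1 or 3) and the second in 1 (without SW480-B replicate 1). The change against SW480-B was 5.24 without SW480-B replicate 1, 2.61 without replicate 2 and 2.82 to 3.22 in the other 4 fits. TNFRSF8 (CD30, chr1:12123360-12204264), a receptor known from activated lymphocytes and Hodgkin lymphoma, was at 0.295, 0.278 and 0.688 CPM in SW480, at 0.384, 0.430 and 0.216 CPM in SW480-B and at 2.33, 1.66 and 1.66 CPM in SW480-gRNA-B-all. It rose 5.41-fold against SW480-B (log2 fold change 2.44 ± 0.42 SE, adjusted p = 0.011) and 4.36-fold against SW480 (2.12 ± 0.47 SE, adjusted p = 0.041). The first call held in all 6 fits without 1 library and the second in 1 of 6, without SW480 replicate 3.

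TNFRSF19 (TROY, chr13:24144509-24250243), a receptor known as a target of WNT signaling in intestinal stem cells, was at 35.2, 67.3 and 75.0 CPM in SW480 and at 55.2, 61.9 and 59.5 CPM in SW480-B. In SW480-gRNA-B-all, TNFRSF19 was at 8.59, 16.7 and 15.4 CPM, below every library of the other lines. It fell 4.48-fold against SW480 (log2 fold change -2.16 ± 0.36 SE, adjusted p = 0.021) and 4.37-fold against SW480-B (-2.13 ± 0.25 SE, adjusted p = 0.0032). The call against SW480-B held in all 6 fits without 1 library. The call against SW480 held in 2, without SW480 replicate 1 or 3. In SW480-B against SW480, the log2 fold change of TNFRSF19 was 0.01 ± 0.28 SE (adjusted p = 0.99).

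**Figure D4:**
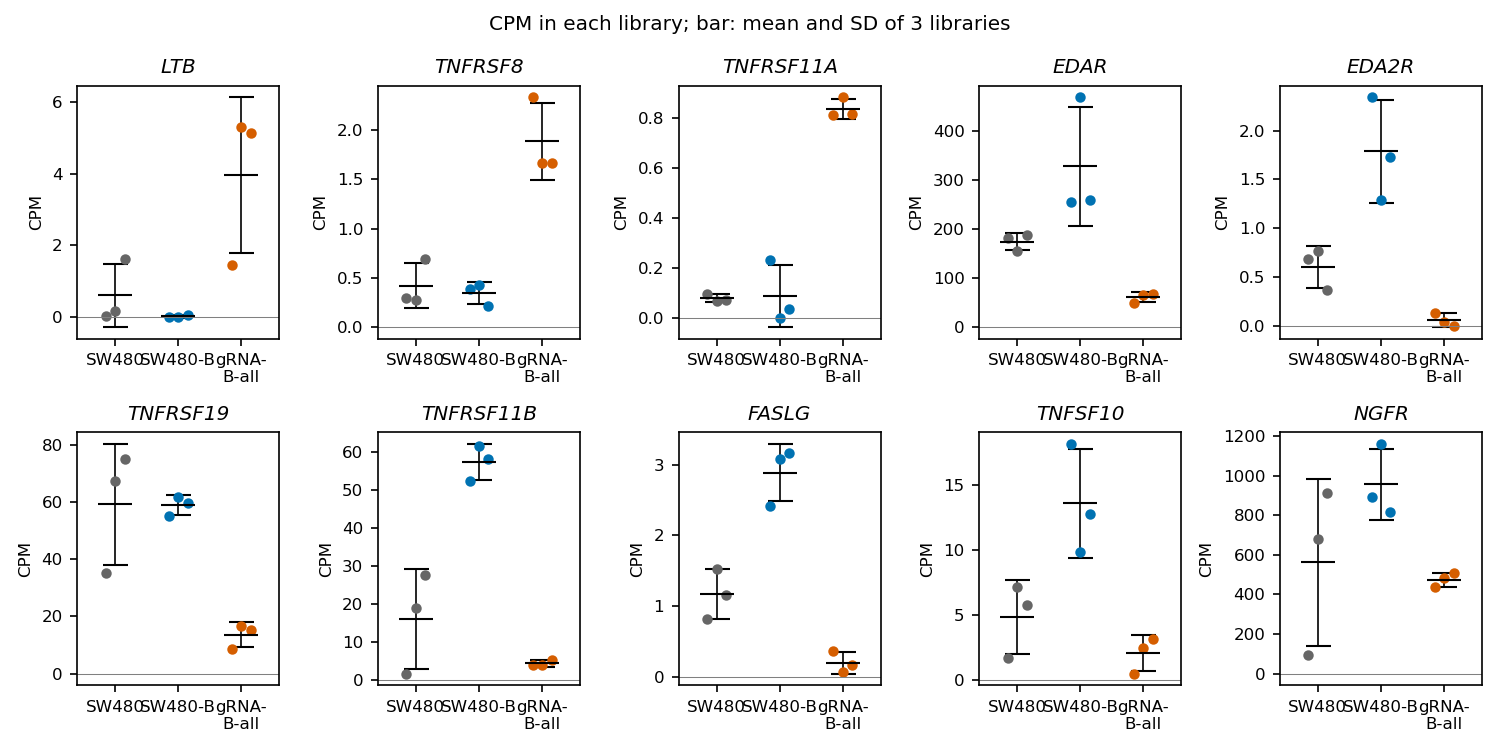
CPM of the 10 called members in each library, with the mean and SD of 3 libraries, 1 panel per gene and linear axes. LTB, TNFRSF8 and TNFRSF11A are highest in SW480-gRNA-B-all, and EDAR, EDA2R, TNFRSF19, TNFRSF11B, FASLG, TNFSF10 and NGFR are lower there than in SW480-B.

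Several abundant TRAF-binding receptors had higher means in both BASP1-expressing lines and were not called by edgeR. TNFRSF12A was at 141, 89.5 and 176 CPM in SW480, at 200, 232 and 232 CPM in SW480-B and at 338, 273 and 276 CPM in SW480-gRNA-B-all. The log2 fold change of TNFRSF12A against SW480 was 1.08 ± 0.27 SE in SW480-gRNA-B-all (adjusted p = 0.057) and 0.71 ± 0.28 SE in SW480-B (adjusted p = 0.27). DESeq2, all 9 libraries in 1 fit and no filter each called TNFRSF12A higher in SW480-gRNA-B-all (adjusted p = 0.004, 0.022 and 0.024). LTBR, the lymphotoxin β receptor, was at 36.5, 62.5 and 67.2 CPM, at 115, 145 and 90.3 CPM and at 111, 111 and 107 CPM in the same order. Its log2 fold change was 0.95 ± 0.23 SE in SW480-gRNA-B-all (adjusted p = 0.04996, below the 2-fold limit) and 1.09 ± 0.28 SE in SW480-B (adjusted p = 0.13). In SW480-B, LTBR was called higher by DESeq2 and with no filter (adjusted p = 0.041 and 0.035). TNFRSF1B, the TNF receptor 2, was at 110, 128 and 223 CPM, at 138, 181 and 185 CPM and at 141, 182 and 187 CPM, and its libraries overlapped in each comparison.

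The remaining TRAF-binding receptors were low. TNFRSF14 (HVEM), the receptor of LIGHT, was at 12.9, 7.95 and 10.8 CPM in SW480, at 9.69, 9.32 and 6.61 CPM in SW480-B and at 6.93, 7.52 and 7.57 CPM in SW480-gRNA-B-all. TNFRSF18 (GITR), known from regulatory T cells, was at 3.44, 2.01 and 2.54 CPM, at 1.58, 0.0717 and 0.863 CPM and at 2.50, 4.47 and 3.94 CPM. The log2 fold change of TNFRSF18 in SW480-gRNA-B-all against SW480-B was 2.10 ± 0.75 SE (adjusted p = 0.13), and DESeq2 called it higher (adjusted p = 0.015). TNFRSF9 (4-1BB) was at 0.491, 0.833 and 0.652 CPM, at 0.961, 1.33 and 0.935 CPM and at 2.57, 0.373 and 0.204 CPM, so that SW480-gRNA-B-all replicate 1 was apart from the other replicates of its line. TNFRSF4 (OX40), the neighbor of TNFRSF18 on chromosome 1, did not pass the filter. Its 46 counts in SW480 stood against 1 in SW480-B, a ratio of 0.0228 (95% counting interval 0.000564 to 0.133), and 3 in SW480-gRNA-B-all, a ratio of 0.0659 (0.0131 to 0.205). With no filter, edgeR gave an adjusted p of 0.0093 in SW480-B and 0.032 in SW480-gRNA-B-all for TNFRSF4, which was singled out after its values were seen. CD27, CD40, TNFRSF13B, TNFRSF13C and TNFRSF17 were tested in no comparison, and every library was at or below 0.778 CPM.

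The ligand LTB, lymphotoxin β, which binds LTBR as a complex with LTA, was at 0.0328, 0.174 and 1.63 CPM in SW480, at 0, 0 and 0.0719 CPM in SW480-B and at 1.45, 5.29 and 5.12 CPM in SW480-gRNA-B-all (chr6:31548302-31550299). The LTB window shown above carries a κB match, as do windows of other members that were not called. The 350 counts of SW480-gRNA-B-all over the 2 of SW480-B gave a ratio of 169 (95% counting interval 46.4 to 1400). That interval leaves out the spread between libraries. The edgeR log2 fold change was 7.09 ± 0.93 SE (adjusted p = 0.0043). The edgeR call held in all 6 fits without 1 library, under the filter that LTB passed only through SW480-gRNA-B-all. The libraries of SW480-gRNA-B-all and SW480 overlapped for LTB. Against SW480, the log2 fold change was 2.66 ± 1.14 SE (adjusted p = 0.18), and without SW480 replicate 3, the SW480 library with most LTB, it was 5.20 (adjusted p = 0.021). DESeq2 called LTB higher against SW480 with all libraries (adjusted p = 0.047). LTB lies with LTA and TNF in the major histocompatibility complex. LTA was at 0.0359 to 0.466 CPM over the 9 libraries and TNF at 0 to 0.362 CPM. LTA was not called in the comparison in which it was tested (log2 fold change -0.26 ± 0.77 SE, adjusted p = 0.87).

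Both death ligands fell in the SW480-gRNA-B-all cells when compared with SW480-B. FASLG, the ligand of FAS (chr1:172628243-172636016), was at 0.819, 1.53 and 1.16 CPM in SW480, at 2.42, 3.08 and 3.16 CPM in SW480-B and at 0.372, 0.0678 and 0.170 CPM in SW480-gRNA-B-all. The libraries of the 3 lines did not overlap. FASLG fell 14.0-fold against SW480-B (log2 fold change -3.81 ± 0.54 SE, adjusted p = 0.0059). The call held in all 6 fits without 1 library, with a change of -4.55 without SW480-gRNA-B-all replicate 1 and of -3.91 to -3.38 in the others. Each of these fits used the filter that FASLG passed only through SW480-B, so they do not lift that limit. Against SW480, the change was -2.53 ± 0.60 SE in SW480-gRNA-B-all (adjusted p = 0.0504) and 1.31 ± 0.42 SE in SW480-B (adjusted p = 0.20). DESeq2 called FASLG lower in SW480-gRNA-B-all (adjusted p = 0.0059) and higher in SW480-B (adjusted p = 0.048). TNFSF10 (TRAIL, chr3:172223298-172241265) was at 1.70, 7.19 and 5.76 CPM in SW480, at 18.2, 9.89 and 12.8 CPM in SW480-B and at 0.507, 2.51 and 3.16 CPM in SW480-gRNA-B-all. Every SW480-B library was above all others. TNFSF10 fell 6.70-fold against SW480-B (log2 fold change -2.75 ± 0.58 SE, adjusted p = 0.024). The call was lost without SW480-B replicate 1 or 2 or SW480-gRNA-B-all replicate 2. It was also lost with no filter and with SW480-gRNA-B-all replicates 2 and 3 summed (adjusted p = 0.053 and 0.059). Against SW480, the change was 1.51 ± 0.52 SE in SW480-B (adjusted p = 0.22) and -1.28 ± 0.74 SE in SW480-gRNA-B-all (adjusted p = 0.29).

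Of the other ligands, 0 were called by edgeR, and DESeq2 called TNFSF15 higher in SW480-gRNA-B-all against SW480 (adjusted p = 0.0099). TNFSF12 (TWEAK), the ligand of TNFRSF12A, was at 0.688, 2.12 and 3.37 CPM in SW480, at 5.57, 2.62 and 4.21 CPM in SW480-B and at 4.94, 4.51 and 4.55 CPM in SW480-gRNA-B-all. Its neighbor TNFSF13 (APRIL) was at 0.393, 1.28 and 2.64 CPM, at 3.46, 5.91 and 2.19 CPM and at 3.75, 4.07 and 3.70 CPM. The exons of TNFSF13 share 55.5% and those of TNFSF12 12.1% of their length with other genes on the same strand, among them the readthrough locus TNFSF12-TNFSF13, which had no count, and the values of both are uncertain. The changes of TNFSF12 and TNFSF13 on the log2 scale in SW480-gRNA-B-all against SW480 were 1.15 ± 0.53 SE and 1.39 ± 0.61 SE (adjusted p = 0.20 and 0.19). TNFSF15 (TL1A), the ligand of TNFRSF25, was at 0.524, 0.972 and 0.471 CPM, at 2.08, 2.11 and 1.19 CPM and at 11.1, 1.59 and 0.984 CPM. SW480-gRNA-B-all replicate 1 accounted for most of its mean, and the log2 fold change of 2.76 ± 0.98 SE against SW480 (adjusted p = 0.12) was 0.93 without that library.

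CD70, the ligand of CD27, and TNFSF9 (4-1BBL), the ligand of TNFRSF9, lie on chromosome 19. CD70 was at 3.37, 6.84 and 9.45 CPM in SW480, at 9.49, 2.97 and 12.6 CPM in SW480-B and at 7.14, 16.4 and 17.1 CPM in SW480-gRNA-B-all. TNFSF9 was at 2.33, 9.16 and 6.84 CPM, at 10.9, 10.6 and 9.71 CPM and at 3.04, 9.76 and 10.5 CPM. The libraries of CD70 overlapped in all comparisons. The ligands CD40LG, TNFSF4, TNFSF8, TNFSF11, TNFSF13B, TNFSF14 and TNFSF18 and the members LTA and TNF had means of at most 0.317 CPM in any line, and CD40LG had no count.

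The intracellular arms of the pathway were examined with lists of genes downstream of the receptors. Of 34 receptor-proximal adapters and kinases, such as the TRAF proteins, FADD and RIPK1, 0 were called by edgeR in each of the 3 comparisons, with medians of 0.09, 0.24 and -0.13 on the log2 scale for SW480-gRNA-B-all against SW480, SW480-B against SW480 and SW480-gRNA-B-all against SW480-B. Of 13 tested NF-κB subunits, inhibitors and IκB kinases, 0 were called in the same comparisons, with medians of 0.14, 0.04 and 0.07. The medians over all genes were -0.054, -0.004 and -0.004 in that order. Of 20 tested genes of the caspase arm, 2 fell against SW480 in SW480-gRNA-B-all, where 4.66% of all genes were called lower. In the other comparisons, 0 were called by edgeR. The medians of the caspase arm were -0.02, -0.11 and 0.13. BCL2, an inhibitor of mitochondrial apoptosis, was at 7.14, 8.61 and 3.48 CPM in SW480 and at 1.22, 0.983 and 1.46 CPM in SW480-gRNA-B-all (log2 fold change -2.44 ± 0.43 SE, adjusted p = 0.025). DFFB, the caspase-activated nuclease, was at 17.6, 18.8 and 13.4 CPM and at 5.78, 7.83 and 7.43 CPM (-1.29 ± 0.24 SE, adjusted p = 0.028). Each of these calls held in 2 of 6 fits without 1 library. The SW480-B libraries had 3.00, 2.58 and 1.76 CPM of BCL2 and 8.15, 8.42 and 9.31 CPM of DFFB, all below every SW480 library. Neither fall was called there by edgeR (-1.385 ± 0.456 SE and -0.937 ± 0.275 SE, adjusted p = 0.21 and 0.17). DESeq2 called BCL2 lower in SW480-B (adjusted p = 0.041). Of 23 tested p53 target genes, 1 was called, PHLDA3, an inhibitor of AKT, which was at 105, 168 and 119 CPM in SW480-B and at 36.8, 38.1 and 37.8 CPM in SW480-gRNA-B-all (-1.81 ± 0.20 SE, adjusted p = 0.0023). In SW480-gRNA-B-all against SW480-B, 4.37% of all genes were called lower. The medians of the p53 list were -0.18, -0.06 and 0.09.

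Of the NF-κB target genes, 5 of 25 tested rose and 1 fell in SW480-gRNA-B-all against SW480-B, 2 of 25 rose and 1 fell in SW480-gRNA-B-all against SW480, while 0 of 26 were called by edgeR in SW480-B against SW480. The medians were 0.07, 0.59 and 0.61 in that order, against -0.004, -0.054 and -0.004 over all genes. Of all genes, 2.31% were called higher and 4.37% lower in the first of these comparisons. The shares were 1.89% and 4.66% in the second and 0.0931% and 1.25% in the third. IL32, a cytokine, was at 0.461, 0.717 and 1.98 CPM in SW480-B and at 14.6, 32.4 and 31.8 CPM in SW480-gRNA-B-all (log2 fold change 4.63 ± 0.56 SE, adjusted p = 0.0034). The complement component C3 was at 3.00, 2.40 and 5.03 CPM and at 17.4, 21.8 and 22.3 CPM (2.55 ± 0.31 SE, adjusted p = 0.0033), and the adhesion molecule ICAM1 at 59.0, 74.6 and 29.9 CPM and at 194, 154 and 151 CPM (1.60 ± 0.32 SE, adjusted p = 0.02). In SW480, IL32 was at 0.295, 1.49 and 8.04 CPM, C3 at 0.295, 4.48 and 10.8 CPM and ICAM1 at 4.78, 19.4 and 43.2 CPM. The urokinase gene PLAU was at 5.23, 9.32 and 4.89 CPM in SW480-B, at 1.67, 5.73 and 7.10 CPM in SW480 and at 94.1, 31.1 and 30.9 CPM in SW480-gRNA-B-all. PLAU rose against both SW480-B (3.00 ± 0.50 SE, adjusted p = 0.011) and SW480 (3.41 ± 0.68 SE, adjusted p = 0.033). CX3CL1, a chemokine, was at 2.42, 1.79 and 1.44 CPM in SW480-B, at 2.29, 2.50 and 2.28 CPM in SW480 and at 5.75, 5.66 and 6.07 CPM in SW480-gRNA-B-all. It rose by 1.62 ± 0.30 SE against SW480-B (adjusted p = 0.016) and by 1.26 ± 0.26 SE against SW480 (adjusted p = 0.035). Against SW480, the calls of PLAU and CX3CL1 held in 2 of 6 fits without 1 library. With the replicate block, neither was called against SW480 (adjusted p = 0.061 for each), whereas IL32 and ICAM1 were called higher (0.039 and 0.048). The chemokine CXCL3 fell against both, by 2.22 ± 0.46 SE on the log2 scale (adjusted p = 0.023) and 2.98 ± 0.53 SE (adjusted p = 0.025). CXCL3 was at 0.538, 0.573 and 0.827 CPM in SW480-B, at 1.61, 0.694 and 0.869 CPM in SW480 and at 0.169, 0.102 and 0.136 CPM in SW480-gRNA-B-all. With 12 counts there, it passed the filter only through the line where it was higher, so both calls carry the limit given for such members. The NF-κB subunit part in MS2-P65-HSF1 is carried by SW480-gRNA-B-all alone, and its part in these values was not tested.

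Of the marker lists, 3 of 9 tested colon epithelial markers fell in SW480-gRNA-B-all against SW480 (CDX2, VIL1 and CDH17), 2 of 10 in SW480-B against SW480 (VIL1 and CDH17) and 1 of 8 between SW480-gRNA-B-all and SW480-B (CDX2). Of all genes, 4.66%, 1.25% and 4.37% were called lower in these comparisons. The same 3 comparisons gave 0, 0 and 1 of 3 tested blood and immune cell markers called, the last being CD4, which fell by 2.47 on the log2 scale. Of 1 tested endothelial marker, 0 were called in each comparison. Of the fibroblast markers, COL1A1 rose against SW480 in SW480-gRNA-B-all, and LUM fell in both BASP1-expressing lines against SW480. CDH17 and LUM had at most 1 count in either BASP1-expressing line and passed the filter only through SW480. CD4 needed the SW480-B libraries to pass. The calls of these 3 markers therefore carry the limit given above for such members. The part of the marker changes in the member results was not tested.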

How the data were processed

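RNA of the 3 lines, with 3 replicates each, was sequenced as stranded libraries after poly(A) selection. The authors used the GRCh37 build and deposited fragment counts per gene as whole numbers, not normalized; the counting program is not given in the sources used here. The files end in 5 lines that name no gene, which were left out (5.22% to 9.93% of fragments on no feature and 3.09% to 3.44% ambiguous). Symbols were matched for 55665 identifiers, which hold 99.4% of the counts. Library depth was 25238831 to 29355669 counts, and intervals and depth limits cover counting error only. Replicates are separate RNA isolations and may share a culture, so p-values measure the spread between these libraries.

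Each pair of lines was compared on its own 6 libraries with edgeR 4.0.16 in R 4.3.3 (TMM, filterByExpr with a minimum count of 10 and total of 15, robust glmQLFit, glmQLFTest) over all genes, with Benjamini-Hochberg adjustment. SE was obtained by dividing each log2 fold change by the root of its F statistic. Exon lengths and positions are from GENCODE v44 lifted to GRCh37, promoters from RefSeq GRCh38.p14. The tests were tried on simulated counts. Alternatives were RLE factors, no filter, 1 CPM in 3 libraries, all 9 libraries in 1 fit, a replicate block, DESeq2 1.42.0, no fold limit, summed replicates and each library left out.

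The members and lists were chosen with earlier results of these data known. Members with a mean of at least 1 CPM in a line are given in full, others by group, and of each list up to 5 called genes per direction. Of 40 NF-κB targets 39 and of 6 endothelial markers 5 were matched. Same-numbered libraries of SW480-B and SW480 deviated together (correlations of 0.308, 0.407 and 0.417), and the block is given where it changes the call of a member.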

Additional observations from a re-analysis of the deposited data

Results flagged for a closer look

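The 10 members called in the comparison of SW480-gRNA-B-all with SW480-B are listed here because it tests directly whether the differences of both BASP1-expressing lines from SW480 are unequal. The log2 differences were 7.09 for LTB, 3.19 for TNFRSF11A and 2.44 for TNFRSF8, all higher in SW480-gRNA-B-all. They were -4.89 for EDA2R, -3.81 for FASLG, -3.71 for TNFRSF11B, -2.75 for TNFSF10, -2.44 for EDAR, -2.13 for TNFRSF19 and -1.02 for NGFR, all higher in SW480-B. The value for LTB rests on 2 counts in SW480-B, and its size depends on how the fit treats counts near 0.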

How the results depend on the processing

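In SW480-gRNA-B-all against SW480, the 2 members called higher became 3 with RLE size factors, with no filter and with no fold limit, 5 with all 9 libraries in 1 fit, 7 with DESeq2, 1 with a filter of 1 CPM in 3 libraries, 2 with the replicate block and 0 after summing the 2 similar replicates of SW480-gRNA-B-all. Without 1 library, they ranged from 0 to 9. The 2 called lower became 5 with all 9 libraries, 6 with DESeq2 and with no filter, 2 with the replicate block and 0 with the summed replicates, and ranged from 0 to 7 without 1 library. The highest counts, 9 and 7, came without SW480 replicate 3. No member was called higher without SW480 replicate 2 or any 1 replicate of SW480-gRNA-B-all, and none lower without SW480 replicate 2 or SW480-gRNA-B-all replicate 2 or 3.

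In SW480-B against SW480, the 0 called higher became 2 with DESeq2 and 1 with no filter, and stayed at 0 with the replicate block and in all fits without 1 library. The 0 called lower became 2 with DESeq2 and with no filter, 1 with the replicate block (TNFRSF25) and 0 to 2 without 1 library, with 2 without SW480 replicate 3. In SW480-gRNA-B-all against SW480-B, the 3 called higher became 5 with DESeq2, 2 with the filter of 1 CPM, 4 with no filter and with the replicate block, and 2 with the summed replicates, and ranged from 2 to 3 without 1 library. The 7 called lower were 8 with DESeq2, 6 with no filter and with all 9 libraries, 7 with the replicate block and 5 with the summed replicates, and ranged from 5 to 7. With the summed replicates, the calls of TNFRSF11A, NGFR and TNFSF10 against SW480-B were lost in the edgeR fit (adjusted p = 0.13, 0.096 and 0.059). Dropping or summing libraries leaves fewer of them, and the cause of the other shifts was not tested.

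No tested member reversed its direction while called. Over 88 pairs of a member and a comparison, 624 of 666 alternative values kept their status as called or not called, 32 gained a call and 10 lost one. Of 528 values without 1 library, 485 kept their status, 15 gained a call and 28 lost one. Most pairs were not called at the outset, since 4, 0 and 10 members were called in the 3 comparisons. The kept values are therefore mostly those of uncalled members and do not measure how stable the calls were. In SW480-gRNA-B-all against SW480, the calls of EDAR, TNFRSF11A, TNFRSF19 and TNFRSF8 held in 3, 2, 2 and 1 of 6 fits without 1 library. Same-numbered libraries did not all deviate together in the other comparisons: the correlations were 0.321, -0.0375 and 0.326 for SW480-gRNA-B-all and SW480, and 0.274, -0.12 and 0.31 for SW480-gRNA-B-all and SW480-B. In the fits with the replicate block, TNFRSF8 was not called against SW480 in SW480-gRNA-B-all (adjusted p = 0.056), where TNFRSF12A was (0.044), and TNFRSF10D was called against SW480-B (0.03). As a hint from the data only, 3 of 6 libraries correlated best with their own number in SW480-gRNA-B-all and SW480, 6 of 6 in SW480-B and SW480, and 3 of 6 in SW480-gRNA-B-all and SW480-B.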
